A study of Mus musculus with 2 samples.

Results

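The 9 genes described here encode the pore-forming subunits of the AMPA and kainate receptors, Gria1 to Gria4 and Grik1 to Grik5. They were chosen by name, as the complete subunit families, from the 28692 genes of the count matrices. Single habenula cells of adult male C57BL/6 mice, 50 to 55 days old, were profiled by droplet RNA sequencing in 2 libraries, each a pool of 4 mice. Mice of both groups were handled for 5 min a day over 7 days. Control mice came from the home cage. Mice of the foot shock group had spent 10 min a day in the chamber on 7 days, then received 30 shocks of 0.3 mA and 1 s, with a mean interval of 116 s, in a session of 60 min, and tissue was taken straight after it. Punches of 0.75 mm from slices of 300 um were made in both groups in a solution that held 10 uM DNQX (a blocker of AMPA and kainate receptors), 10 uM APV (a blocker of NMDA receptors), 500 nM TTX (a blocker of sodium channels), and blockers of transcription and translation. With 1 library per group there is no test of any difference, and every interval below is a 95% interval that covers counting error only, not the spread between mice or preparations.

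AMPA receptors are tetramers that open within milliseconds of binding glutamate and carry most fast excitatory current in the brain. Kainate receptors are close relatives that work on both sides of the synapse; Grik1, Grik2 and Grik3 encode subunits that can form channels alone, and Grik4 and Grik5 encode high-affinity subunits that need those partners. A channel that contains the edited Gria2 subunit passes little calcium, and one without it passes calcium and is blocked by polyamines. The lateral habenula (LHb) is known for glutamatergic input that excites it during aversive events, and the medial habenula (MHb) projects to the interpeduncular nucleus and releases glutamate, acetylcholine and peptides. Oligodendrocyte precursors carry AMPA receptors and receive synapses from neurons, and astrocytes carry AMPA receptors in several brain regions.

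The codon that sets the calcium passage of the receptor lies in the pore loop, and it is shown first because the counts cannot read it. In each of the 9 members the genome encodes glutamine there, and editing of the RNA, chiefly by the enzyme of Adarb1, changes it to arginine in almost all Gria2 transcripts and in part of those of Grik1 and Grik2. The 45 coding bases around it, on the coding strand from GENCODE vM21 transcripts of GRCm38, have that codon in capitals for the 4 AMPA members and for the 2 kainate members that are edited.
Gria1: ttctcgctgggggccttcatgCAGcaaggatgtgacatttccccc
Gria2: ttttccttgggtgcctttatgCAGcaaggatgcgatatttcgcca
Gria3: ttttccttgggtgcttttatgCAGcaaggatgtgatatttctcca
Gria4: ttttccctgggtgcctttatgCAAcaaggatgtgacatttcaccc
Grik1: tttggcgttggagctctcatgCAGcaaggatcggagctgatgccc
Grik2: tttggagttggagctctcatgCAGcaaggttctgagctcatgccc
The window matched at 42 of 45 bases between Gria2 and Gria3, at 36 of 45 between Gria1 and Gria2 and at 41 of 45 between Grik1 and Grik2. Across the families Gria2 and Grik2 matched at 27 of 45. It is codon 607 of 883 in Gria2, codon 600 of 907 in Gria1 and codon 621 of 908 in Grik2, counted from the start codon of the longest open reading frame. The libraries count the 3' ends of transcripts, far from this codon, so the levels below are of transcripts of each gene whether edited or not.

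In the mm10 build the AMPA members lie at 11:57011387-57330244 on the plus strand (Gria1), 3:80681450-80802835 on the minus strand (Gria2), X:41400854-41678601 on the plus strand (Gria3) and 9:4417896-4796234 on the minus strand (Gria4). The kainate members lie at 16:87895900-88290265 (Grik1), 10:49094833-49788766 (Grik2), 9:42518135-42944493 (Grik4) and 7:25009849-25072346 (Grik5), all on the minus strand, and at 4:125490700-125714173 on the plus strand (Grik3). Among the 9, Grik2 alone shares its span with another counted gene, Gm26543 on the same strand, and their exons do not overlap.

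The control library held 23095501 unique molecular identifiers (UMIs, each a captured transcript) and the foot shock library 22189951. After filtering, 4887 and 4760 cells remained, with medians of 2417 and 2690.5 UMIs, and 32 cell barcodes occurred in both libraries. The members had 17340 UMIs in the control cells and 13351 in the foot shock cells. Cells were named from markers: 1211 control and 1621 foot shock MHb-like neurons, 960 and 850 LHb-like neurons, 244 and 107 oligodendrocyte precursor-like cells, and 576 and 142 astrocyte-like cells. LHb markers summed to 2757 and 2820 CPM (the UMIs of a gene for each 1000000 UMIs of the summed cells) in LHb-like neurons and to 368 and 395 CPM in MHb-like neurons. They summed to 3593 and 4056 CPM in thalamus-like neurons, so the LHb name rests on Pou4f1, a transcription factor of habenula neurons, as much as on this list. MHb markers summed to 6549 and 6986 CPM in MHb-like neurons and to 1727 and 2349 CPM in LHb-like ones. Keratin epithelial-like cells, 503 in the foot shock library and 0 in the control library, stand apart from habenula tissue. Every member was at 4.05 CPM or less in them.

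Gria2 and Gria1 were the most abundant members in habenula neurons. In LHb-like neurons Gria2, the subunit that limits calcium entry, was at 739 CPM in the control library (713 to 765) and at 731 CPM after foot shock (701 to 761). In MHb-like neurons it was at 430 CPM (412 to 448) and 401 CPM (385 to 418). The level was higher still in astrocyte-like cells, at 1429 CPM (1344 to 1519) and 1103 CPM (957 to 1264), and in oligodendrocyte precursor-like cells it was 897 CPM (797 to 1006) and 926 CPM (795 to 1074). Among these 4 classes the order of the Gria2 level was thus astrocyte-like, precursor-like, LHb-like and MHb-like in both libraries, and the intervals of neighbours in that order overlapped only between astrocyte-like and precursor-like cells of the foot shock library.

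Gria1, a subunit that is inserted into synapses during potentiation, had another order. It was at 437 CPM (419 to 456) and 419 CPM (402 to 436) in MHb-like neurons and at 459 CPM (438 to 480) and 379 CPM (358 to 401) in LHb-like neurons. Astrocyte-like cells had 348 and 294 CPM. Oligodendrocyte precursor-like cells had 73.5 CPM (47.1 to 109) in the control library and 184 CPM (128 to 256) in the foot shock library. Gria1 was lowest of these 4 classes in precursor-like cells in both libraries, and the order of the 2 neuron classes turned between libraries. Microglia-like cells, which serve as a background for RNA released into the suspension, had 21.9 CPM (5.96 to 56.0) and 119 CPM (66.6 to 196), and these intervals overlap those of the precursor-like cells.

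Gria3 and Gria4, whose products join Gria2 in many neurons, were highest in precursor-like cells. Gria3 stood there at 217 CPM (170 to 274) and 184 CPM (128 to 256), in LHb-like neurons at 89.0 and 95.6 CPM, in MHb-like neurons at 16.5 and 13.7 CPM, and in astrocyte-like cells at 5.48 and 0 CPM. Barcodes of 10 to 100 UMIs, which hold free RNA rather than cells, had Gria3 at 15.5 and 13.5 CPM, so the MHb-like level was not above that of free RNA beyond counting error. Free RNA was estimated at 4.93% and 5.74% of MHb-like UMIs, so it would add only a part of its own level. How much of the MHb-like Gria3 it supplied was not tested. Gria4 was at 202 and 168 CPM in precursor-like cells, 90.2 and 88.6 CPM in LHb-like neurons, 74.6 and 71.8 CPM in MHb-like neurons and 9.59 and 26.8 CPM in astrocyte-like cells. For both genes the classes followed the order precursor-like, LHb-like, MHb-like and astrocyte-like in both libraries.

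The kainate members were lower than Gria1 and Gria2 in each of the 4 classes, apart from Grik5 against the Gria1 of control precursor-like cells. Grik5 led them, with 70.0 and 68.3 CPM in MHb-like neurons, 79.7 and 85.7 CPM in LHb-like neurons, 82.7 and 63.2 CPM in precursor-like cells and 74.0 and 53.5 CPM in astrocyte-like cells. The Grik5 intervals of precursor-like and astrocyte-like cells overlapped those of both neuron classes, and the intervals of the neuron classes overlapped in the control library but were apart after foot shock, at 61.6 to 75.5 CPM in MHb-like and 75.8 to 96.6 CPM in LHb-like neurons. Grik4 was at 42.9 and 38.1 CPM in LHb-like neurons, 11.7 and 11.1 CPM in MHb-like neurons, 64.3 and 42.1 CPM in precursor-like cells and 5.48 and 5.35 CPM in astrocyte-like cells. Grik3 was at 36.5 and 35.2 CPM in LHb-like neurons and at 16.5 and 11.8 CPM in MHb-like neurons. Grik2 was at 37.2 and 31.1 CPM in LHb-like neurons, while its 4.58 and 3.57 CPM in MHb-like neurons were below the 7.76 and 5.18 CPM of free RNA. As with Gria3, free RNA would add only a part of its own level, and how much it supplied was not tested. Grik1 had few counts: 17 and 10 UMIs in all LHb-like neurons, 2 and 4 in all MHb-like neurons and 0 in astrocyte-like cells, where a count of 0 allows a level of up to 4.11 and 16.1 CPM. Precursor-like cells had 6 Grik1 UMIs in the control library, which is 18.4 CPM (6.74 to 40.0), and 0 in the foot shock library.

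**Figure D1:**
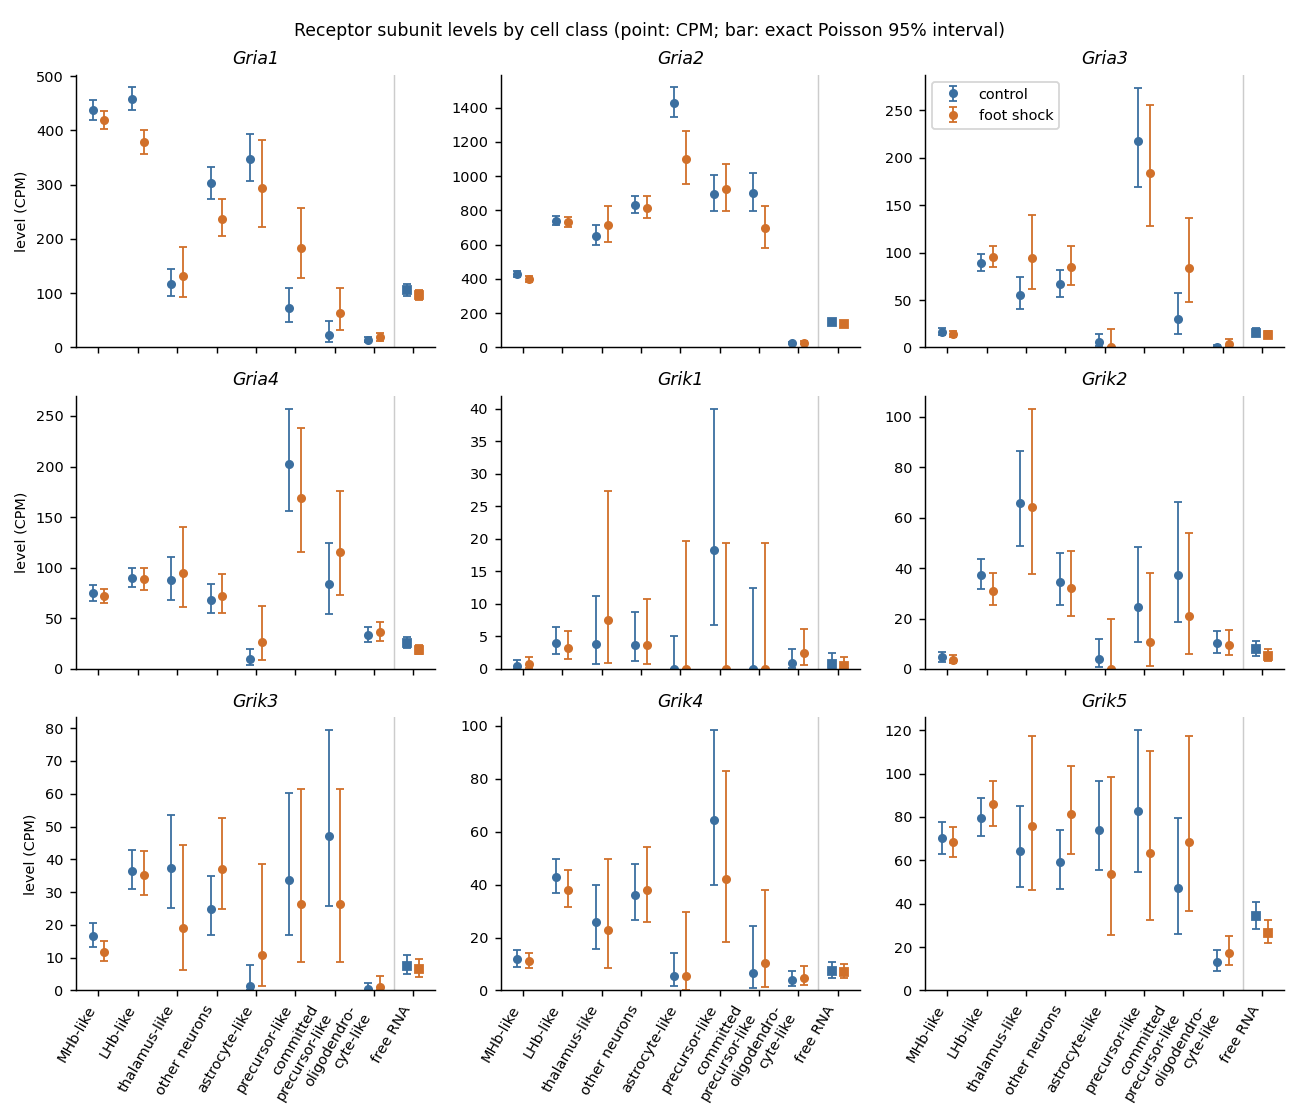
Level of each member (CPM) in each cell class, with control and foot shock libraries as separate points, exact Poisson 95% intervals as bars and free RNA as squares. Gria2 is highest in astrocyte-like cells at 1429 and 1103 CPM, and Gria3 is highest in oligodendrocyte precursor-like cells at 217 and 184 CPM.

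The mix of subunits, which does not depend on the total count of a class, set the classes apart. UMIs were not divided by gene length because each captured 3' end gives 1 UMI, though capture of 3' ends may differ between genes. Of all AMPA member UMIs, Gria2 made up 44.9% (43.4 to 46.3) and 44.3% (43.0 to 45.7) in MHb-like neurons and 53.7% (52.4 to 55.0) and 56.5% (55.0 to 58.0) in LHb-like neurons. In precursor-like cells the Gria2 share was 64.5% (59.9 to 68.9) and 63.3% (57.3 to 69.0), and in astrocyte-like cells it was 79.7% (77.5 to 81.9) and 77.4% (71.9 to 82.3). From smallest to largest, the Gria2 share had the order MHb-like, LHb-like, precursor-like and astrocyte-like in both libraries, with no overlap of intervals between neighbours except between LHb-like and precursor-like cells of the foot shock library.

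The Gria1 share took the place of Gria2 in MHb-like neurons, at 45.6% (44.2 to 47.0) and 46.2% (44.9 to 47.6), so that Gria1 and Gria2 were counted about equally there. It was 33.3% and 29.3% in LHb-like neurons, 19.4% and 20.7% in astrocyte-like cells and 5.29% and 12.6% in precursor-like cells. Gria3 and Gria4 filled the gap in precursor-like cells, with 15.6% and 12.6% for Gria3 and 14.5% and 11.5% for Gria4. The other 3 classes gave Gria3 at most 7.39% and Gria4 at most 7.93%.

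Kainate members held 9.73% and 9.53% of all member UMIs in MHb-like neurons, 840 of 6612 UMIs (12.7%) and 609 of 4684 in LHb-like neurons, 13.9% and 8.85% in precursor-like cells and 4.53% and 4.66% in astrocyte-like cells. Within the kainate family MHb-like neurons counted mostly Grik5, at 67.8% (63.6 to 71.8) and 71.6% (67.6 to 75.4). LHb-like neurons spread their kainate UMIs over Grik5 (39.8% and 44.3%), Grik4 (21.4% and 19.7%), Grik2 (18.6% and 16.1%) and Grik3 (18.2% and 18.2%). The partners that form channels alone, Grik1 to Grik3, therefore had a larger share in LHb-like than in MHb-like neurons.

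**Figure D2:**
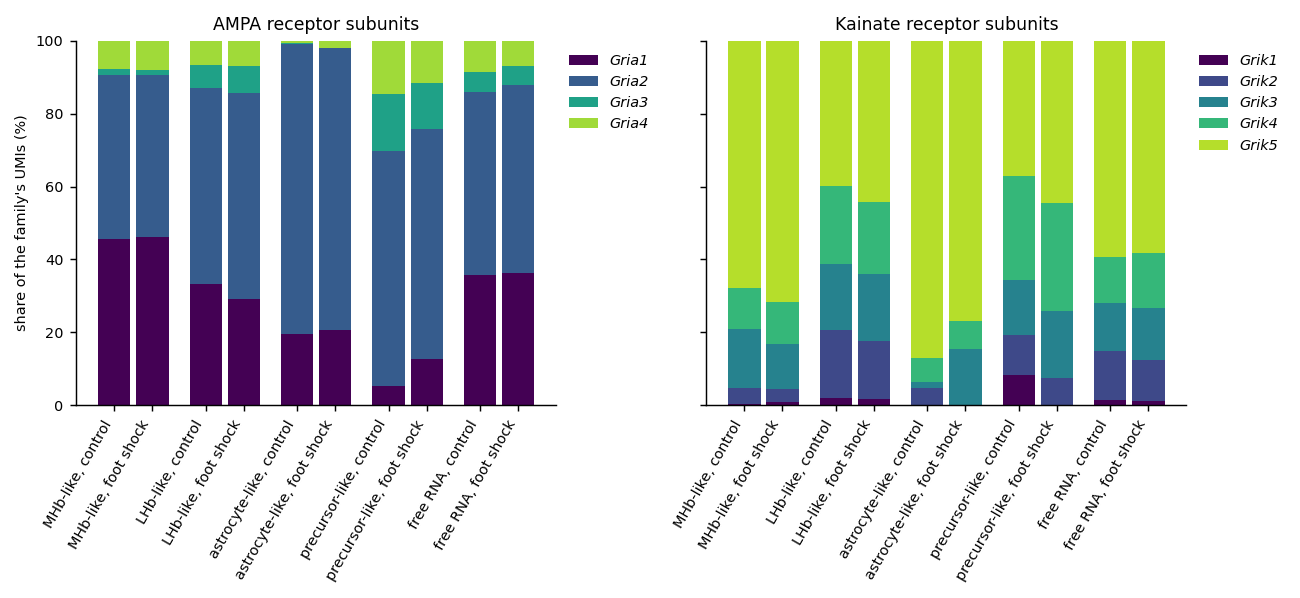
Share of each AMPA subunit among AMPA UMIs and of each kainate subunit among kainate UMIs (percent, stacked to 100), by class and library, with free RNA on the right. The Gria2 part grows from 44.9% and 44.3% in MHb-like neurons to 79.7% and 77.4% in astrocyte-like cells.

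Cells differ in depth, so for shares of cells with a UMI every cell was first reduced to 1000 UMIs. A Gria2 UMI was found in 36.1% and 33.3% of MHb-like neurons, 56.2% and 53.0% of LHb-like neurons, 61.2% and 57.3% of precursor-like cells and 69.7% and 63.8% of astrocyte-like cells. The unthinned shares were 81.2% and 71.1%, 90.3% and 87.4%, 70.5% and 67.3%, and 75.5% and 70.4%, in the same order of classes, which turns the order of neurons and glia. Median depths were 4220 and 3465 UMIs in MHb-like neurons and 1181.5 and 1180 in astrocyte-like cells. Microglia-like cells, with medians of 1488.5 and 1383 UMIs, had a Gria2 UMI in 1.32% and 11.2% of cells after thinning and a Gria1 UMI in 0.829% and 5.33%. Precursor-like cells had a Gria1 UMI in 6.99% and 11.4%, a share whose distance from this background is small in the foot shock library.

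LHb-like against MHb-like neurons asks how the subunits divide between the 2 habenular nuclei, in neurons of the same punches. A gene was counted as different when the ratio was 1.5-fold or more in the same direction in both libraries. Of the 9 members, 6 were higher in LHb-like neurons, where 17.9% of all 12869 measured genes were, and 0 were lower, where 8.95% of all genes were. The 6 were Gria2, Gria3, Grik1, Grik2, Grik3 and Grik4. The median log2 ratio of the 9 was 1.36 in this comparison, against 0.15 over all genes.

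Among AMPA members Gria2 was 1.72-fold higher (1.63 to 1.82) in the control library and 1.82-fold (1.72 to 1.93) in the foot shock library. Gria3 was 5.39-fold (4.24 to 6.92) and 6.96-fold (5.404 to 9.06) higher, while the 16.5 and 13.7 CPM of MHb-like neurons were close to the 15.5 and 13.5 CPM of free RNA, which was estimated at 4.93% and 5.74% of MHb-like UMIs. Gria1 had ratios of 1.05 (0.986 to 1.12) and 0.905 (0.843 to 0.970), and Gria4 of 1.21 (1.04 to 1.40) and 1.23 (1.05 to 1.44). Of the AMPA levels, those of Gria2 and Gria3 thus passed 1.5-fold in both libraries and those of Gria1 and Gria4 did not. Among kainate members Grik2 was 8.13-fold (5.23 to 13.2) and 8.73-fold (5.36 to 14.9) higher in LHb-like neurons, Grik4 3.66-fold (2.71 to 4.99) and 3.45-fold (2.52 to 4.76), and Grik3 2.21-fold (1.68 to 2.92) and 3.00-fold (2.19 to 4.13). Grik5 had ratios of 1.14 (0.976 to 1.32) and 1.26 (1.07 to 1.47). For Grik1, ratios of 10.2 (2.42 to 90.9) and 4.45 (1.28 to 19.4) rested on the few UMIs given above.

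The proteins that accompany these subunits were read from lists of 34 related genes. In LHb-like against MHb-like neurons 11 of the 34 were higher, where 17.9% of all genes were, and 6 lower, where 8.95% were, with a median log2 ratio of 0.18 against 0.15 for all genes. Of the 16 AMPA receptor auxiliary and assembly genes 6 were higher. Cacng2, which encodes stargazin, the auxiliary subunit that carries AMPA receptors to synapses, was at 114 and 101 CPM in LHb-like and at 2.19 and 1.07 CPM in MHb-like neurons, ratios of 52.1 (28.8 to 105) and 94.7 (43.0 to 260.0). Shisa9, another auxiliary subunit, was at 87.3 and 61.3 CPM against 1.59 and 0.891 CPM. Cacng3, Shisa6 and Syndig1 were also higher, and so was Gsg1l, which had 0 UMIs in MHb-like neurons. Cacng4 and Cacng5, of the same family as stargazin, were lower in LHb-like neurons, at ratios of 0.626 and 0.647 for Cacng4 and 0.481 and 0.339 for Cacng5. Cnih2, an auxiliary subunit that slows AMPA receptor gating, was at 346 and 318 CPM in MHb-like and at 219 and 239 CPM in LHb-like neurons. Its ratios of 0.633 and 0.753 passed 1.5-fold in the control library alone, so it was not counted.

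Of the 2 kainate receptor auxiliary genes Neto1 was higher in LHb-like neurons, at ratios of 4.71 and 7.84, and Neto2 had ratios of 0.750 and 0.534. Of 11 scaffold, trafficking and clustering genes, Nsf was higher and Grip1, Nptx1 and Nptx2 were lower. Nptx1 and Nptx2 encode neuronal pentraxins, secreted proteins that cluster AMPA receptors, and stood at 232 and 243 CPM and at 269 and 276 CPM in MHb-like neurons. Of the RNA editing enzymes Adar was higher in LHb-like neurons, at ratios of 1.61 and 1.72. Adarb1, the editor of the codon shown above, had ratios of 1.39 and 1.12, and Adarb2 was lower on few UMIs.

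**Figure D3:**
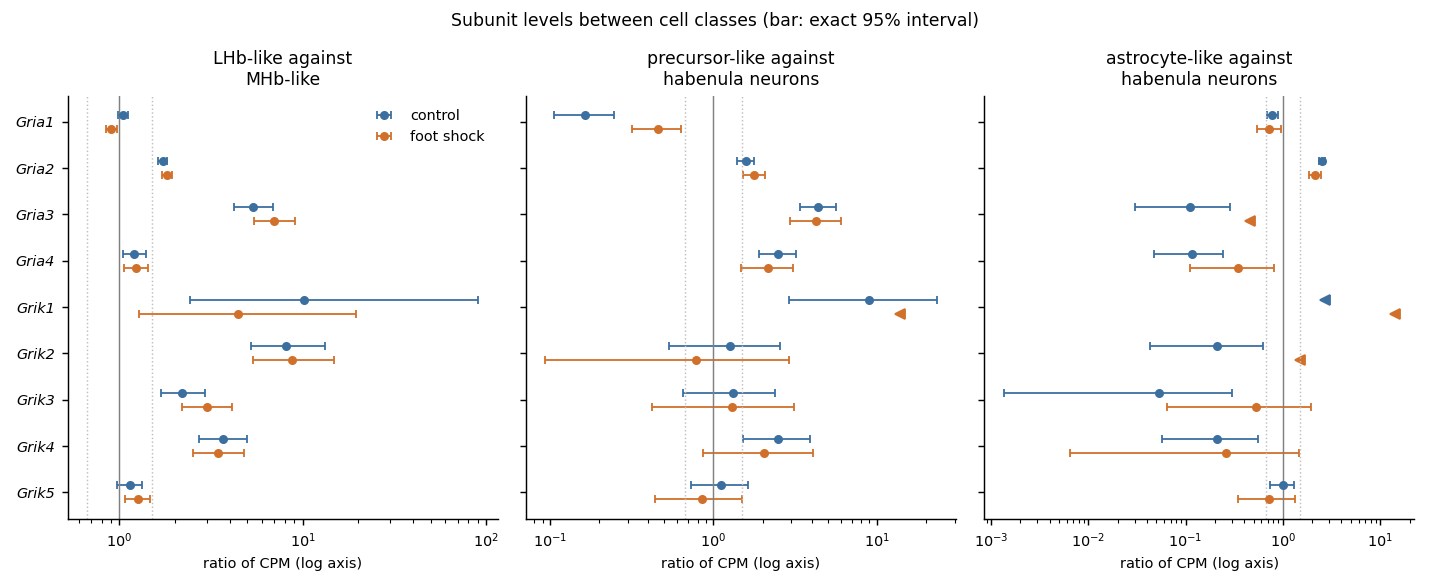
Ratio of each member between cell classes (log axis) in the control and foot shock libraries, with exact conditional binomial 95% intervals; dotted lines mark 1.5-fold either way and a triangle marks the upper bound where the ratio is 0. In the first panel Grik2 sits at 8.13 and 8.73 and Gria1 at 1.05 and 0.905, and in the second Gria1 is the member on the left, at 0.164 and 0.456.

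Oligodendrocyte precursor-like cells against habenula neurons of the same library gave 4 of 9 members as higher, where 18.2% of all genes were, and 1 as lower, where 20.1% were. Gria2 was 1.57-fold (1.39 to 1.77) and 1.78-fold (1.52 to 2.07) higher, Gria3 4.39-fold (3.37 to 5.65) and 4.27-fold (2.93 to 6.04), and Gria4 2.47-fold (1.89 to 3.18) and 2.16-fold (1.47 to 3.08). The fourth was Grik4, at 2.48 (1.51 to 3.88) and 2.03 (0.862 to 4.08), with an interval that holds 1 in the foot shock library. Gria1 was the lower member, at 0.164 (0.105 to 0.245) and 0.456 (0.317 to 0.635). As CPM, precursor-like cells thus had a higher level of each AMPA transcript but Gria1 than MHb-like and LHb-like neurons pooled. Their median depths were 1199.5 and 1192 UMIs against 4245 and 3504 in those neurons, and transcripts per cell were not compared. For Gria2 the distance was smaller from LHb-like neurons alone, at 739 and 731 CPM against 897 and 926 CPM in precursor-like cells. Grik1 to Grik3 and Grik5 were not counted as different, and Grik1 went from 6 UMIs in the control library to 0 in the foot shock library.

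Among related genes 8 of 34 were higher in precursor-like cells than in neurons, where 18.2% of all genes were, and 9 lower, where 20.1% were, with a median log2 ratio of -0.18 against 0.13 for all genes. Cacng4 was at 986 and 700 CPM in precursor-like cells, 7.48-fold (6.59 to 8.46) and 5.06-fold (4.198 to 6.06) the neuronal level. Shisa7, an auxiliary subunit, was at 135 and 105 CPM, ratios of 6.21 and 4.75, and Neto1 had ratios of 4.58 and 4.27. Cacng2 was lower, at 0.173 (0.0356 to 0.509) and 0.142 (0.00358 to 0.796). The RNA editing genes were split. Adar was lower, at 0.439 and 0.427, and so was Adarb1, at 0.521 and 0.561 (0.255 to 1.07), an interval that holds 1 after foot shock. Adarb2 was higher, at 12.6 (6.04 to 25.1) and 3.95 (0.778 to 12.5), the latter with an interval that holds 1.

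Astrocyte-like cells against habenula neurons gave 1 of 9 members as higher, where 15.6% of all genes were, and 6 as lower, where 37.3% were. The higher member was Gria2, at 2.51 (2.34 to 2.68) and 2.12 (1.84 to 2.44). Gria3 was lower at 0.111 (0.0301 to 0.286) in the control library, with 0 UMIs and an upper bound of 0.460 in the foot shock library, and Gria4 at 0.117 (0.0470 to 0.243) and 0.344 (0.111 to 0.806). Grik2, Grik3 and Grik4 had intervals below 1 in the control library but not in the foot shock library. Grik1 had 0 astrocyte UMIs in both, and the neuronal 2.06 and 1.60 CPM were under the level that 0 UMIs allow, so a difference in Grik1 was not detectable at this depth. Its ratios of 0, with upper bounds of 2.71 and 14.1, put it among the 6 by the counting rule alone, and the other 5 are Gria3, Gria4, Grik2, Grik3 and Grik4. Gria1 had ratios of 0.779 (0.683 to 0.884) and 0.728 (0.547 to 0.950), and Grik5 of 0.994 (0.739 to 1.31) and 0.718 (0.343 to 1.33). The counted set in astrocyte-like cells was therefore Gria2, Gria1 and Grik5, and other members had 7 UMIs or fewer in each library.

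Of the 34 related genes 25 were lower in astrocyte-like cells than in neurons, where 37.3% of all genes were, and 3 were higher, where 15.6% were. The median log2 ratio was -1.96 against -0.28 for all genes. Shisa9 was among the higher, at 2.26 (1.72 to 2.94) and 2.37 (1.12 to 4.45). So was Cacng8, at 2.00 (0.917 to 3.93) and 2.53 (0.296 to 9.82), with intervals that hold 1 in both libraries. Cacng5 had ratios of 0.919 and 1.02, and Cnih2 of 0.0285 and 0.0740. Adarb1 was at 17.8 and 10.7 CPM in astrocyte-like cells, ratios of 0.189 (0.100 to 0.326) and 0.127 (0.0153 to 0.459).

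Subclusters of each class were found by clustering its neurons again with the members and the 34 related genes kept out. Each is called by 2 of its 10 leading genes, known subtype markers first. The MHb-like subclusters marked by Actb and Pam and by Clasp2 and Slc39a1 shared leading genes with the LHb-like one marked by Abhd2 and Pam. All held Pam, Abhd2, Hsf2, Clasp2 and Actb, at median depths of 2246.5, 2641 and 2580 UMIs, and whether they are subtypes was not tested. With at least 50 cells in a library, 8 MHb-like subclusters were described in both libraries, and 7 LHb-like ones in the control and 9 in the foot shock library. LHb-like subclusters varied more than MHb-like ones in Gria2. In the control library it spanned 256 to 974 CPM over LHb-like and 371 to 485 CPM over MHb-like subclusters. After foot shock it spanned 262 to 1079 and 353 to 478 CPM, where 353 CPM was that of the Clasp2 and Slc39a1 subcluster. Levels of Gria2 over the 7 LHb-like subclusters measured in both libraries had Pearson's r = 0.98 between libraries (log2(CPM + 10)), those of Gria1 r = 0.97 and those of Grik3 r = 0.96. The subclusters come from a joint clustering of both libraries, so these values are a description.

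The subcluster marked by Sst and Mctp1 had the lowest Gria1 and Gria2 of all LHb-like subclusters in both libraries. Its Gria1 was at 201 CPM (146 to 270) and 211 CPM (163 to 269) and its Gria2 at 256 CPM (193 to 332) and 262 CPM (209 to 326), the latter below the Gria2 of every MHb-like subcluster. All 4 AMPA members summed to 639 CPM (537 to 754) and 611 CPM (528 to 704) in it. Its 10 leading genes held 1 MHb marker, Gng8, and 0 LHb markers, as did those of the subcluster marked by Peg10 and Tmem255a. With both left out, 6 members were still higher in LHb-like than in MHb-like neurons. The subcluster marked by Megf11 and Cbln1 was at the other end, with Gria2 at 974 CPM (915 to 1035) and 1079 CPM (980 to 1185) and an AMPA sum of 1656 and 1727 CPM. It also had the highest Grik4, at 62.3 CPM (48.2 to 79.2) and 79.2 CPM (54.1 to 112), beside a low Grik3 of 9.44 and 12.4 CPM. Its Pou4f1 was 1.11 per 10000 UMIs, close to the 1 per 10000 asked of habenula neurons.

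Kainate subunits separated LHb-like subclusters further. The subcluster marked by Cxcl13 and Ret, 57 and 56 cells, had Grik3 at 125 CPM (90.8 to 169) and 136 CPM (95.5 to 187). Grik3 was 9.44 CPM in the lowest LHb-like subcluster of the control library. The same subcluster had the highest Gria3, at 187 CPM (144 to 238) and 216 CPM (165 to 279), the highest Grik5, at 117 and 143 CPM, and the lowest Grik4, at 17.5 and 7.33 CPM. Its kainate mix was thus the reverse of the Megf11 and Cbln1 subcluster, which had high Grik4 and low Grik3. Grik2 was prominent in the subcluster marked by Chrm2 and Sv2c, at 66.7 CPM (50.6 to 86.2) and 53.9 CPM (38.6 to 73.1), where it made up 36.3% and 31.5% of kainate UMIs. That was the highest LHb-like level in the control library, and after foot shock the Cxcl13 and Ret subcluster was as high, at 55.0 CPM. In the subcluster marked by Lmo7 and Rorb, which reached 50 cells in the foot shock library alone, Gria2 was 68.5% and Gria1 17.7% of AMPA UMIs. Those are the highest Gria2 share and the lowest Gria1 share of the LHb-like subclusters in that library.

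MHb-like subclusters differed in Gria3, in Grik3 and in the balance of Gria1 and Gria2. The subcluster marked by Synpr and Fgf1, 183 and 260 cells, held Gria3 at 40.4 CPM (28.9 to 55.0) and 32.1 CPM (22.9 to 43.7), above free RNA. The subcluster marked by Cck and Tac1, 163 and 218 cells, had 0 Gria3 UMIs in both libraries, which allows up to 4.87 and 4.42 CPM. The subcluster marked by Syt15 and Nppa had 1 and 1, and that marked by Sema3d and Rprm 1 and 0. Gria3 transcripts of MHb-like neurons were therefore counted in some subclusters and nearly missing from others. In those others they were below the free RNA level of 15.5 and 13.5 CPM. Sema3d and Rprm marked the subcluster with the highest Gria2 share of AMPA UMIs in both libraries, at 56.3% (52.4 to 60.2) and 56.7% (52.4 to 61.0), where Gria1 was at 329 and 285 CPM. The Synpr and Fgf1 subcluster had Gria1 at 506 and 499 CPM and a Gria2 share of 37.3% and 37.8%. Grik3 was highest in the subcluster marked by Ebf3 and Prox1, at 50.1 CPM (30.2 to 78.3) and 24.6 CPM (11.8 to 45.3), and 1.62 and 7.37 CPM in the Cck and Tac1 subcluster. Over the 8 MHb-like subclusters r between libraries was 0.91 for Gria3, 0.80 for Grik3 and Gria1, 0.46 for Gria2 and -0.32 for Grik5, whose levels spanned 51.2 to 78.8 CPM in the control library.

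**Figure D4:**
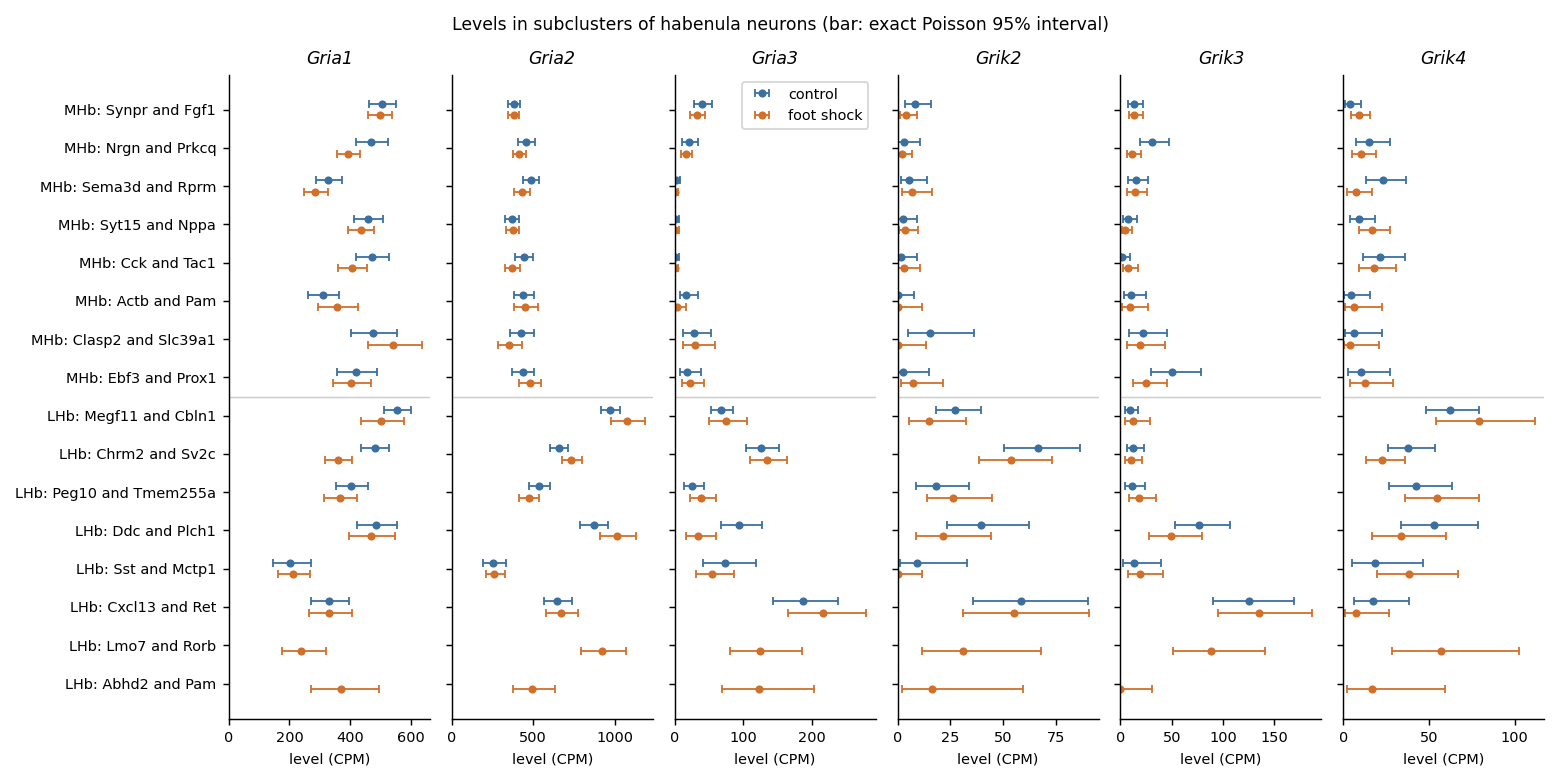
Levels (CPM) of 6 members in 8 MHb-like and 8 LHb-like subclusters of at least 50 cells in a library, named by 2 of their 10 leading genes, in both libraries with exact Poisson 95% intervals. Gria2 of the Sst and Mctp1 subcluster is lowest at 256 and 262 CPM, and Grik3 of the Cxcl13 and Ret subcluster is highest at 125 and 136 CPM.

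Genes with the most similar pattern were sought over 50 points, the subclusters of habenula neurons and the other classes in each library, among 7676 genes, by Pearson's r of log2(CPM + 10). The points share library and depth, and r is a description. Gria1 was most like Ahcyl2 and Cacna2d2 (r = 0.91 for both), and Lsamp was among the genes most like Gria2 (r = 0.93). Gria3 was most like Lhfpl3 (r = 0.84) and Grm5 (r = 0.81), Gria4 like Rnf208 and Nlgn2 (r = 0.87 for both), and Grik2 like Reep5 (r = 0.87) and Lingo2 (r = 0.85). Grik5 was most like Map2 (r = 0.89), a gene of neuronal microtubules, and Arxes2 (r = 0.88). The highest r was lower for Grik3 (Slc4a8, r = 0.76) and Grik4 (RP24-236C17.2 and Krt1, r = 0.82 for both) than for the members above. Grik1 had too few UMIs to enter.

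Foot shock against control within a class asks whether the subunits differed after the session, between 2 libraries. In MHb-like neurons 0 of 8 measured members were higher by 1.5-fold and 0 lower, where 3.03% and 4.6% of all 11758 measured genes were. In LHb-like neurons it was 0 and 0 of 9, where 3.43% and 6.06% of 11642 genes were. MHb-like ratios ran from 0.712 (Grik3, 0.508 to 0.996) to 0.975 (Grik5, 0.841 to 1.13), with Gria1 at 0.958 (0.903 to 1.02) and Gria2 at 0.934 (0.880 to 0.991).

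LHb-like Gria2 had a ratio of 0.989 (0.937 to 1.04), and Gria1 of 0.826 (0.768 to 0.888), the LHb-like member with an interval that leaves out 1. Over the 7 subclusters measured in both libraries Gria1 was lower after foot shock in 5, and the intervals were apart in the subcluster marked by Chrm2 and Sv2c, at 482 CPM (437 to 530) and 360 CPM (319 to 405). In the subcluster marked by Cxcl13 and Ret it was 330 CPM in both libraries. The makeup of the class differed as well: the Megf11 and Cbln1 subcluster, with Gria1 at 555 and 502 CPM, had 272 cells in the control and 120 in the foot shock library. The part of that makeup in the class ratio was not tested. The other LHb-like members had ratios from 0.783 (Grik1) to 1.08 (Grik5), with intervals that hold 1.

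In precursor-like cells 1 of 6 measured members was higher, where 15.6% of 5080 genes were, and 1 lower, where 18% were. Gria1 went from 24 to 35 UMIs, a ratio of 2.51 (1.45 to 4.41), and Grik4 from 21 to 8 UMIs, a ratio of 0.655 (0.251 to 1.54) with an interval that holds 1. Gria2 had a ratio of 1.03 (0.852 to 1.25), Gria3 of 0.848 (0.549 to 1.29) and Gria4 of 0.834 (0.529 to 1.29). Markers of other cells moved with the Gria1 value: all 12 MHb markers were detected in precursor-like cells of both libraries, and they summed to 487 CPM in the control and 1605 CPM in the foot shock library. The 7 markers of any neuron summed to 851 and 1853 CPM, and the 5 markers of the precursors themselves to 4277 and 2937 CPM. The share of the class's UMIs estimated to come from free RNA was 20.0% and 44.4%. That estimate is set by the MHb and microglia markers counted in the class, so it is not separate from the MHb sums above. It also cannot tell free RNA from undetected doublets with neurons. Of 19 measured related genes 10 were higher after foot shock in these cells, where 15.6% of all genes were, among the higher Cnih2, Frrs1l, Nptx1, Nptx2 and Nptxr. With cells of at least 500 UMIs kept the Gria1 ratio was 1.37, and without removal of doublets it was 1.48, and with the estimated free RNA share subtracted it was 2.67. The part of neuronal RNA in the ratio was not tested.

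In astrocyte-like cells 0 of 3 measured members were higher by 1.5-fold, where 12.2% of 6244 genes were, and 0 were lower, where 22.4% were. Gria2 had a ratio of 0.772 (0.661 to 0.897), Gria1 of 0.846 (0.620 to 1.14) and Grik5 of 0.723 (0.328 to 1.43). The class had 576 cells in the control and 142 in the foot shock library. Its MHb markers summed to 230.2 CPM (12 of 12 detected) and 455 CPM (9 of 12), and its own markers to 10652 and 9303 CPM.

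The other classes described had few measured members. In oligodendrocyte-like cells 0 of 5 were higher and 0 lower, where 5.09% and 14% of all genes were. In thalamus-like neurons 1 of 8, Gria3, was higher, where 7.3% were, at 1.71 (1.00 to 2.87), and 1, Grik3, was lower, where 14.6% were, at 0.507. In committed precursor-like cells 1 of 4 was higher, where 12.9% were, and 0 lower, where 16.5% were: Gria3, at 2.77 (1.15 to 7.12) on 9 and 16 UMIs. MHb markers summed to 155 and 838 CPM in those cells. In microglia-like cells the 1 measured member, Gria2, was higher, where 21% were and 19.4% were lower, at 5.80 on 7 and 28 UMIs, beside MHb markers of 306 and 1784 CPM. The part of neuronal RNA in these 2 ratios was not tested.

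**Figure D5:**
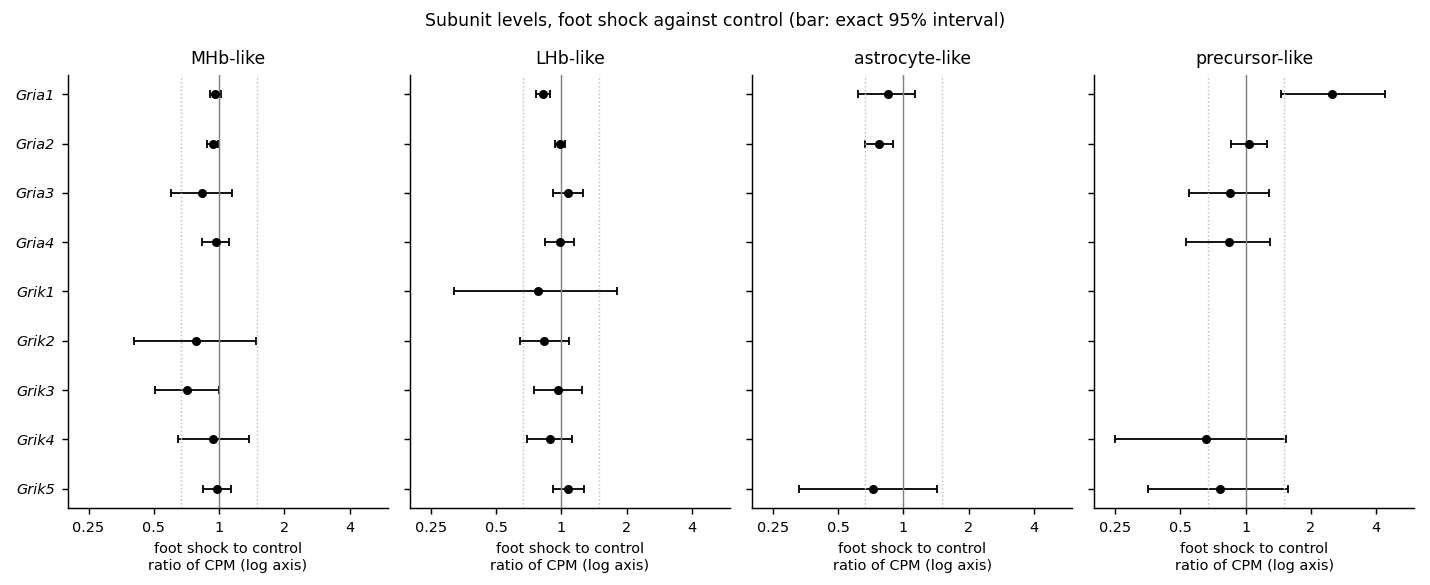
Foot shock to control ratio (log axis) of each measured member in MHb-like, LHb-like, astrocyte-like and precursor-like cells, with exact conditional binomial 95% intervals and dotted lines at 1.5-fold either way. The MHb-like and LHb-like points lie between 0.712 and 1.08, and Gria1 of precursor-like cells is at 2.51.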

How the data were processed

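The deposited values are raw counts of UMIs, for 737280 barcodes in each library, from 10x 3' version 2 chemistry per the labels. The submitters' processing notes name Cell Ranger 2 and mm10; the gene annotation's version is not stated there. Of the 28692 gene identifiers, 28416 were found in GENCODE vM21, which gave the positions.

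Cells had at least 1000 UMIs, 500 to 6000 genes and at most 20% mitochondrial UMIs. Scrublet (expected rate 0.08) removed 242 control cells (4.72%) and 80 foot shock cells (1.65%). Both libraries were clustered together with scanpy 1.11.5 (2000 variable genes without members or related genes, 30 principal components, 15 neighbours, leidenalg 0.10.2 at resolution 1.0). A cluster was named with 3 or more markers held, habenula neurons also with Pou4f1 at 1 per 10000 or more, set with the data seen; mixed clusters (14 and 81 cells) were left out. Related genes were named from their lists, and for each member with 100 UMIs or more in habenula neurons the 2 most similar genes. The members and lists were chosen with earlier results of these data known. A gene was measured at 20 UMIs or more over the sums compared and called at 1.5-fold.

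Intervals are exact at 95% (Poisson, Clopper-Pearson or conditional binomial; scipy 1.17.1). A count of 0 was taken to allow 3 counts. Tested on simulated data with counting error alone, intervals held 192 of 200 set ratios over 11758 genes in MHb-like, 191 over 11642 in LHb-like, 192 over 5080 in precursor-like and 198 over 6244 in astrocyte-like cells. Free RNA was summed over 74374 control and 94619 foot shock barcodes that held 10 to 100 UMIs. Some genes and 1 LHb-like subcluster are not reported here.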

Additional observations from a re-analysis of the deposited data

Results flagged for a closer look

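Gria1 stood out because its foot shock to control ratio lay on opposite sides of 1 in different cell classes of the same 2 libraries, with intervals that both leave out 1. The ratio was 2.51 (1.45 to 4.41) in oligodendrocyte precursor-like cells, from 24 and 35 UMIs, and 0.826 (0.768 to 0.888) in LHb-like neurons, from 1923 and 1193 UMIs. The difference between the classes was not tested, since each group is 1 library. Summed MHb markers were 487 and 1605 CPM in the precursor-like cells and 1727 and 2349 CPM in the LHb-like neurons, and their part in either ratio was not tested.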

How the results depend on the processing

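Gria2 shares, counts of members and the members' ratios were recomputed under those of 15 alternatives that apply to them (10 to 14 for each Gria2 share of AMPA UMIs and each count). Of the 15, 13 were planned and 2 chosen after seeing the data: Pou4f1 at 2 or more per 10000, and LHb-like neurons without the 2 subclusters whose leading genes held an MHb marker and 0 LHb markers. No member ratio past 1.5-fold reversed, but ratios nearer 1 could change side. The LHb-like foot shock to control ratio of Grik1, below 1 above, was 1.13 at a mitochondrial limit of 10%. That of Grik5, above 1 above, was 0.995 with cells weighed equally. Subcluster levels and related-gene ratios were not recomputed. Members higher in LHb-like neurons numbered 5 to 6 and lower 0. Against neurons, precursor-like cells had 3 to 6 members higher and 1 lower, and astrocyte-like cells 1 higher and 5 to 6 lower. Members past 1.5-fold after foot shock stayed at 0 in MHb-like neurons. In LHb-like neurons 1 member, Grik1, was lower with Pou4f1 at 2 per 10000 and with cells weighed equally. In precursor-like cells 0 members were higher at 500 UMIs per cell, without doublet removal and at 100 UMIs per gene, and 0 lower under those 3, at a mitochondrial limit of 10%, with cells weighed equally and at a fold of 2. In astrocyte-like cells 1 member, Grik5, was lower without doublet removal and with cells weighed equally.

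The Gria2 share of AMPA UMIs in LHb-like control neurons was 49.6% at 2000 UMIs per cell, 51.6% at a mitochondrial limit of 10%, 51.9% with Pou4f1 at 2 per 10000 and 58.9% with cells weighed equally. In LHb-like foot shock neurons it was 54.2% at 2000 UMIs, 58.5% without those subclusters and 58.9% with cells weighed equally, in MHb-like control neurons 46.5% with cells weighed equally, and in astrocyte-like control cells 82.8% at Leiden resolution 0.5. Of the precursor-like cells 8 and 21 had 2000 UMIs or more, and of the astrocyte-like cells 19 and 10. A class needed 50 cells in a library, so values of these 2 classes have no counterpart at 2000 UMIs per cell. The share of all genes past the fold after foot shock was smaller at 100 UMIs per gene, at 0.86% higher and 1.39% lower in MHb-like, 1.13% and 2.06% in LHb-like, 9.2% and 11.5% in precursor-like and 3.38% and 12.5% in astrocyte-like cells. At a fold of 2 it was 0.808% and 0.842%, 0.773% and 1.30%, 5.91% and 6.61%, and 3.86% and 9.88% in that order of classes, 10.6% and 5.35% for LHb-like against MHb-like, and 11.9% and 12.7% for precursor-like cells against neurons. With the free RNA share subtracted 32.4% of genes were lower in precursor-like cells than in neurons and 42.4% lower in them after foot shock, and 9.24% were higher there after foot shock at 500 UMIs per cell. Depth limited the precursor-like and astrocyte-like cells, where 6 and 3 of the 9 members reached 20 UMIs over both libraries. No paired analysis was possible because each group is 1 library.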

Other observations

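Other cell classes carried their own subunit mixes. Thalamus-like neurons, 132 control and 57 foot shock cells, counted Gria2 at 653 CPM (597 to 712) and 716 CPM (618 to 826) and Gria1 at 117 CPM (94.4 to 144) and 133 CPM (92.4 to 185). Gria2 made up 71.5% (68.0 to 74.8) and 69.0% (63.1 to 74.4) of their AMPA UMIs. Grik2 stood at 65.7 CPM (48.9 to 86.4) and 64.4 CPM (37.5 to 103) in them, a level above that of each other class described here.

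Committed precursor-like cells, which leave the precursor state for oligodendrocytes and numbered 93 and 67, kept Gria2 at 901 CPM (797 to 1016) and 695 CPM (582 to 825). Their Gria3 was at 30.4 CPM (13.9 to 57.7) and 84.3 CPM (48.2 to 137), against 217 and 184 CPM in precursor-like cells. In oligodendrocyte-like cells, 1080 and 827, the AMPA members summed to 75.2 and 85.5 CPM. Gria4 was the member counted most there, at 33.4 CPM (26.4 to 41.6) and 36.5 CPM (27.9 to 46.8), which is 44.4% (37.0 to 52.0) and 42.7% (34.4 to 51.2) of their AMPA UMIs. Gria4 made up less than that in each other class described here, for example 14.5% and 11.5% in precursor-like cells. Free RNA had Gria4 at 25.5 CPM (20.6 to 31.3) and 18.4 CPM (14.4 to 23.2). The intervals of free RNA and the oligodendrocyte-like level overlapped in the control library and were apart in the foot shock library. Gria2, at 26.6 and 26.3 CPM, was below the 148 and 137 CPM of free RNA.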
